A study of Mus musculus with 6 samples.

Results

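The clustered protocadherin genes were taken as all protein-coding genes whose symbol names a member of the alpha, beta or gamma cluster, which lie together on mouse chromosome 18. GENCODE M21 lists 57 such gene IDs, 14 in the alpha, 22 in the beta and 21 in the gamma cluster. The deposited count table holds 24 of them among 37991 IDs, namely all 22 beta genes but a single ID for each of the other clusters. The alpha ID is ENSMUSG00000007440, with the symbol Pcdha11, and the gamma ID is ENSMUSG00000023036, with the symbol Pcdhgc4.

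RNA-seq libraries came from mouse primordial germ cell-like cells (PGCLCs), a culture model of the first germ cells, taken on day 4 of induction from embryonic stem cells. The 3 Ezh2 KO libraries (genotype Ezh2-/-, CreERT2) came from aggregates given 4-hydroxytamoxifen dissolved in ethanol, and the 3 Ctrl libraries (Ezh2f/f, CreERT2) from aggregates given ethanol alone. All cells were of C57BL/6 background and carried floxed Ezh2 and the Cre recombinase that 4-hydroxytamoxifen activates, and all received BMP2, SCF, LIF and EGF. No group received 4-hydroxytamoxifen without floxed Ezh2, so effects of the drug, of Cre activation and of Ezh2 loss cannot be told apart. Cells were sorted before RNA extraction, by a gate that the labels do not describe. No label ties the replicates to separate inductions or clones. The p-values may therefore measure a technical spread between these samples.

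Ezh2 encodes the enzyme that deposits the repressive histone mark H3K27me3 within polycomb repressive complex 2. Its scaled level was lower in each Ezh2 KO library than in each Ctrl library, as was so for 4.03% of all tested genes. It stood at 40.8, 67.1 and 70.0 CPM (counts scaled to library size) in Ezh2 KO replicates 1 to 3. Ctrl replicates 1 to 3 were at 91.8, 78.1 and 95.3 CPM. The log2 fold change, Ezh2 KO over Ctrl, was -0.58 ± 0.23 SE, which missed the threshold of 0.05 (edgeR quasi-likelihood test, adjusted p = 0.976), and 0 of the 4 core genes of the complex were called. Counts are per gene and include reads from exons that are not deleted, so they do not show which exons the remaining reads came from. How complete the deletion was in these cells was not tested. Totals ran from 27072150 to 38643944 counts in Ezh2 KO and from 27358959 to 49382146 counts in Ctrl. All 13 germ cell and pluripotency markers listed were expressed highly enough to test, with 0 called, and they summed to 1515 to 2163 CPM in Ezh2 KO and to 1970.2 to 2271 CPM in Ctrl. Their log2 fold change was negative for 10 and positive for 3, where 7994 of all 16420 tested genes were negative. The median was -0.29, against 0.01 over all tested genes.

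Clustered protocadherins are cell-surface adhesion proteins best known from neurons, where each cell expresses its own small combination of them and uses it to tell its own branches from those of other cells. In the alpha and gamma clusters each gene has its own promoter and large first exon, which encodes the extracellular part, and this exon is spliced to constant exons shared by the whole cluster. Beta genes have no such constant exons. Promoter choice is known to depend on CTCF and cohesin, and silencing of the clusters on DNA methylation by Dnmt3b and on the chromatin repressors Smchd1 and Setdb1.

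How the table counts the alpha and gamma clusters limits what can be said of single genes. The variable exons of Pcdhac1, Pcdhac2, Pcdhgc3, Pcdhgc5 and the other members without an ID of their own were not analysed here. On chromosome 18 the rows follow the order of gene starts in GENCODE M21 in 98.8% of 690 adjacent pairs. The gamma ID stands directly after 3222401L13Rik and before Gm24401, a small RNA gene that starts upstream of Pcdhgc4 in that annotation. Gm2531 also starts upstream of Pcdhgc4 there and stands in a later row. The same holds for Gm2531 and the alpha ID, so the row order does not settle which region was counted. The region counted under the gamma ID can therefore not be taken as Pcdhgc4 alone, and it may hold other first exons and the constant exons. For the alpha ID the region counted is likewise unknown.

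Nearly all reads of the family fell on the gamma ID. Of 2674 counts over the 24 members and 6 libraries, 2611 belonged to the gamma ID, 39 to the 22 beta genes together and 24 to the alpha ID. These are read counts and not levels per length, so they rank no gene above another. Only the gamma ID had enough reads to be tested, 1 of 24 members (4.2%), where 66.0% of the 20214 protein-coding IDs in the table were tested.

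**Figure D1:**
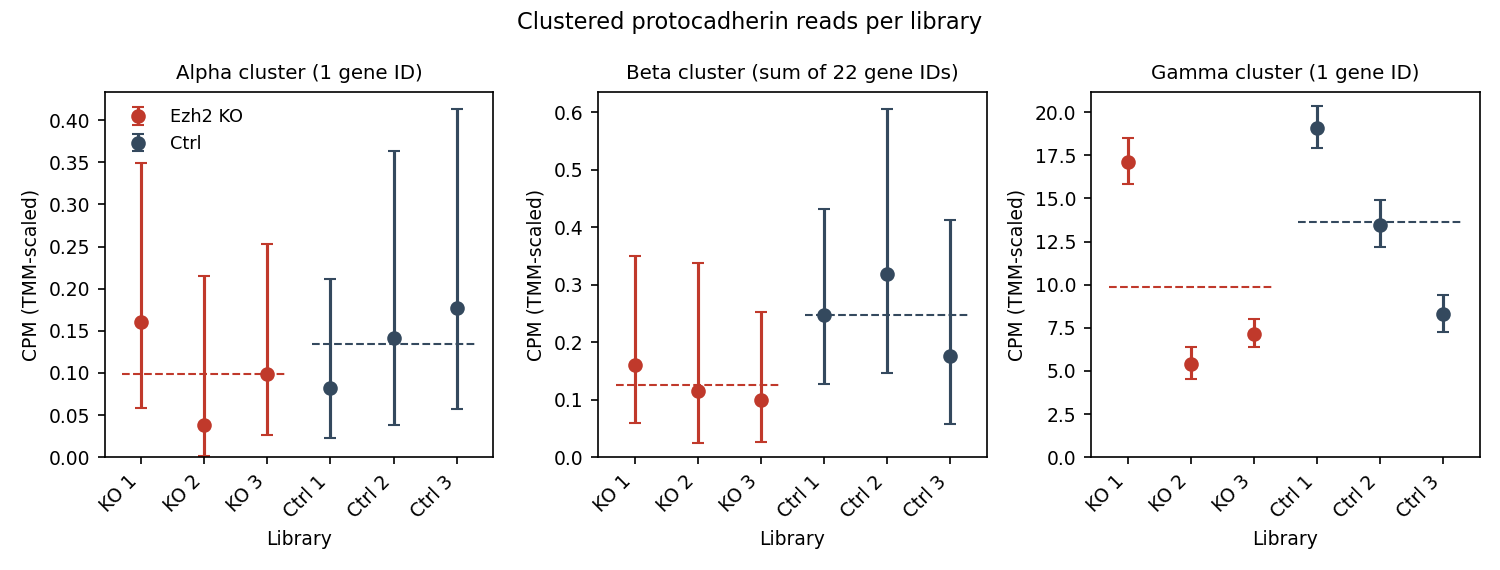
CPM of the alpha ID, of the 22 beta genes summed and of the gamma ID in each library (points), with exact Poisson 95% intervals that cover counting error only (bars) and group means (dashed lines). The gamma ID lies between 5.41 and 19.1 CPM with the groups interleaved, while the other clusters stay under 0.32 CPM.

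The gamma ID was read in every library, with 640, 140 and 290 counts in Ezh2 KO replicates 1 to 3, against 927, 380 and 234 counts in Ctrl replicates 1 to 3. Scaled to library size, its level was 17.1, 5.41 and 7.16 CPM in Ezh2 KO replicates 1 to 3, against 19.1, 13.5 and 8.28 CPM in Ctrl replicates 1 to 3. The groups overlapped: Ezh2 KO replicate 1 lay above Ctrl replicates 2 and 3. In bulk samples, fewer cells that express a gene and less RNA per cell cannot be told apart. The mean was 9.89 ± 6.31 CPM in Ezh2 KO and 13.6 ± 5.42 CPM in Ctrl (SD, n = 3 each).

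The difference in the gamma ID did not pass the edgeR test. The log2 fold change was -0.46 ± 0.48 SE with a 95% interval of -1.56 to 0.64, that is 0.726-fold with an interval of 0.338 to 1.56 (unadjusted p = 0.363, adjusted p = 0.976). Permuting the CPM over libraries gave an exact p of 0.5 (2-sided), where 3 libraries against 3 cannot go below 0.1. The edgeR test called 0 of the members, against a background of 0.0% of all 16420 tested genes, with 0 members at an unadjusted p under 0.05 where 2.80% of tested genes were, 1.55% higher and 1.25% lower in Ezh2 KO. Other fits called few genes in all: DESeq2 called 0.0201% and DESeq2 with the replicate number as a block 0.285%, again with 0 members among them. Every same-numbered pair had the lower value in Ezh2 KO, at 89.6%, 40.1% and 86.5% of the Ctrl library in pairs 1, 2 and 3. How many of all tested genes were lower in every pair was not counted. With that block in edgeR the log2 fold change was -0.55 (unadjusted p = 0.0799, adjusted p = 0.603). In that fit 1495 of the 16420 tested genes had an unadjusted p under 0.05.

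Single libraries set the size of this difference. With Ezh2 KO replicate 1 left out, the value was -1.12 (unadjusted p = 0.0228, adjusted p = 0.543), and with Ctrl replicate 3 left out it was -0.74. It was -0.13 without Ctrl replicate 1, -0.17 without Ezh2 KO replicate 2 and -0.27 without Ezh2 KO replicate 3. Without both Ctrl replicate 1 and Ezh2 KO replicate 2, the libraries at the ends of the main axis of variation, the direction turned, to 0.15 (edgeR, unadjusted p = 0.735).

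Ranked by gamma level, the libraries stood in the order of that axis, with the groups interleaved. The first principal component of all tested genes held 55.5% of the variance and put the libraries in the order Ctrl replicate 1 (-61.4), Ezh2 KO replicate 1 (-35.5), Ctrl replicate 2 (-1.2), Ctrl replicate 3 (6.8), Ezh2 KO replicate 3 (13.3) and Ezh2 KO replicate 2 (78). The gamma level fell at each step of this order, by 3.54-fold from end to end. So did 367 tested genes in all (2.24%), while 151 (0.920%) rose at each step. Loadings on the component correlated with the GC content of transcripts, with Spearman's rho -0.54 across genes, which are not independent replicates. The transcripts of the gamma ID in GENCODE M21 have a mean GC content of 54.1%, against a median of 50.8% over tested genes. The region counted may differ from these transcripts, so its own GC content is unknown. Corrected library by library on the GENCODE M21 value, the gamma ID had a log2 fold change of -0.41 (edgeR, adjusted p = 0.963).

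**Figure D2:**
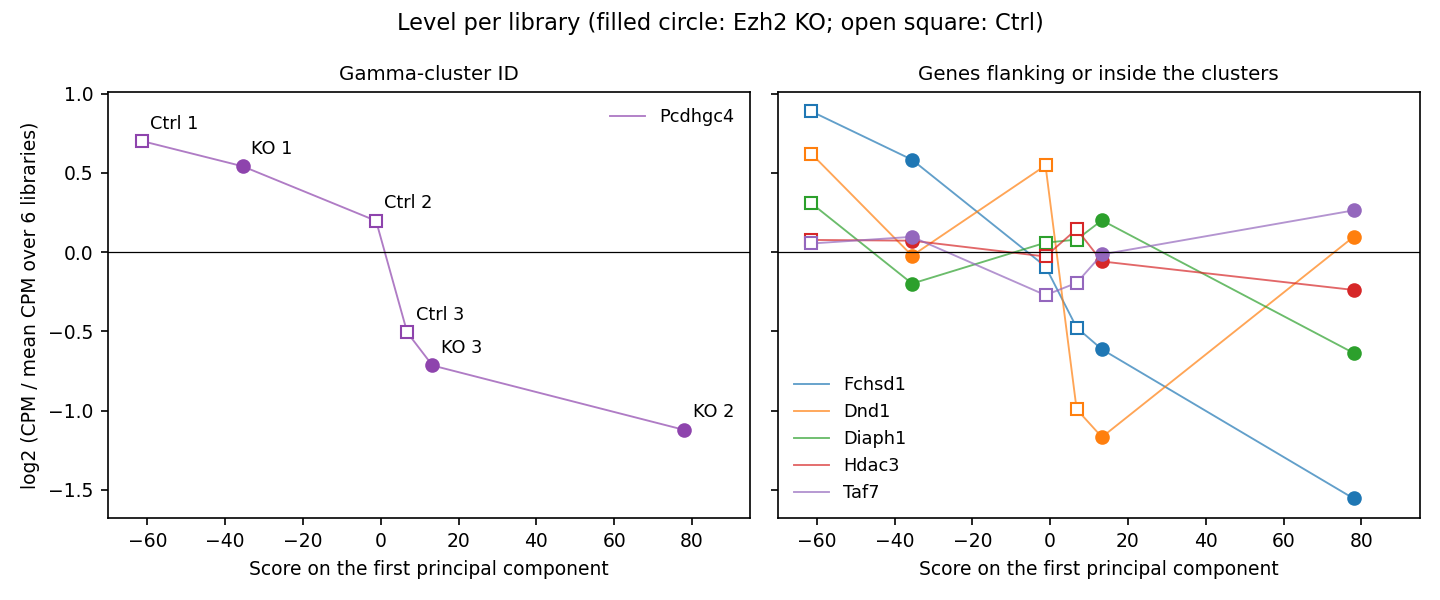
Level in each library relative to the gene's own mean over 6 libraries (log2, vertical axis) against the library's score on the first principal component (horizontal axis), for the gamma ID (left) and 5 neighbouring genes (right). The gamma ID and Fchsd1 fall from Ctrl replicate 1 at -61.4 to Ezh2 KO replicate 2 at 78, with filled Ezh2 KO and open Ctrl symbols interleaved, while Hdac3 and Taf7 stay close to their means.

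The beta cluster was almost without reads. Of its 22 genes 9 (40.9%) had no count in any library, where 12.2% of all protein-coding IDs had none. They are Pcdhb1, Pcdhb4, Pcdhb5, Pcdhb6, Pcdhb7, Pcdhb10, Pcdhb11, Pcdhb12 and Pcdhb15. With 3 counts taken as the floor, a count of 0 in a library allows a level of up to 0.0618 CPM in Ctrl replicate 1, the deepest. In Ezh2 KO replicate 2, the shallowest, it allows up to 0.116 CPM. These limits are not the exact Poisson intervals given for the sums. A further 8 beta genes had counts in 1 library only, among them Pcdhb2 with 5 counts in Ctrl replicate 1 and Pcdhb19 with 3 counts in Ctrl replicate 2. Such reads were not repeated in a second library, and how the authors' counting treated reads shared between the similar beta genes is not given in the sources used here.

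The remaining 5 beta genes had counts in 2 or more libraries. Pcdhb17 was read in the most, with 1, 1 and 2 counts in Ezh2 KO replicates 1 to 3 and 0, 3 and 0 counts in Ctrl replicates 1 to 3. Pcdhb3 had 2, 0 and 0 counts in Ezh2 KO and 0, 0 and 2 counts in Ctrl. Pcdhb22, the last gene of the cluster, had 0 counts in each Ezh2 KO library and 4, 1 and 0 counts in the Ctrl libraries. Pcdhb20 had 0 counts in each Ezh2 KO library and 0, 1 and 2 counts in the Ctrl libraries. Pcdhb14 had a single count in Ezh2 KO replicate 3 and in Ctrl replicate 3. None of these shows a difference detectable at this depth. By position, 9 of the 11 genes from Pcdhb12 to Pcdhb22 had any reads, with 8 counts in Ezh2 KO and 19 in Ctrl. Of the 11 from Pcdhb1 to Pcdhb11, 4 had any, with 5 counts in Ezh2 KO and 7 in Ctrl. This split rests on 39 counts in all and was not tested.

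**Figure D3:**
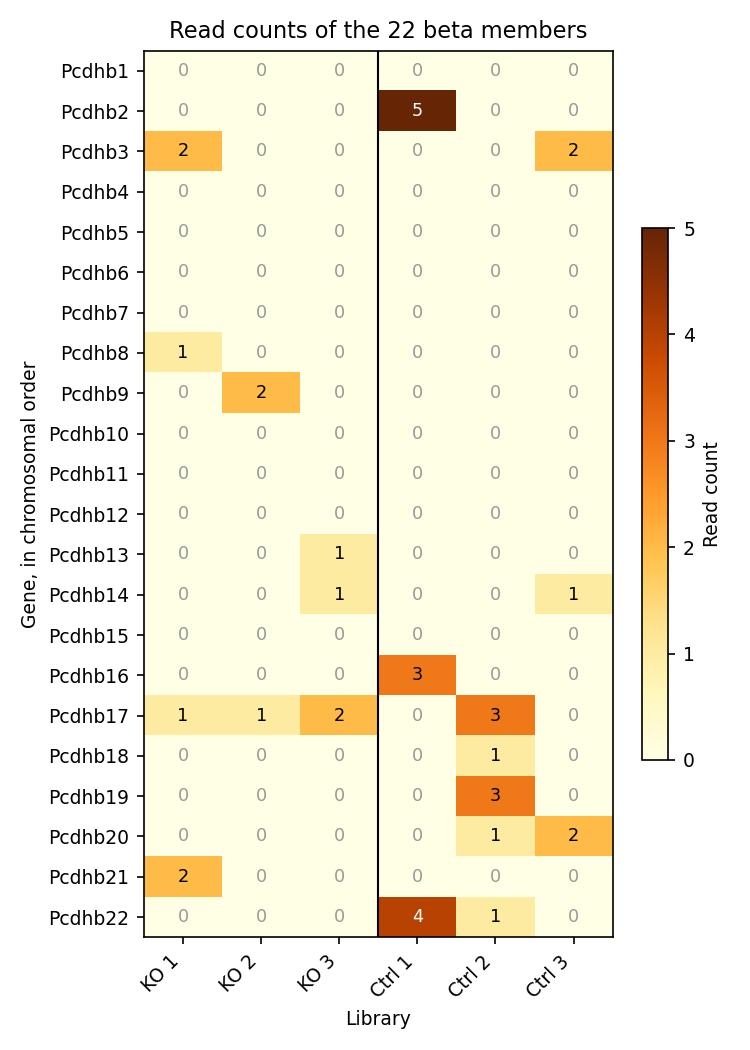
Read counts of each of the 22 beta genes (rows, in chromosomal order) in the Ezh2 KO libraries (left of the line) and the Ctrl libraries (right of it), as printed numbers and shading. Most cells are 0, the highest is 5 counts for Pcdhb2 in Ctrl replicate 1, and the lower rows hold more of the reads.

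Summed over the 22 genes, the beta cluster had 6, 3 and 4 counts in Ezh2 KO replicates 1 to 3 and 12, 9 and 5 counts in Ctrl replicates 1 to 3. Scaled, this was 0.160, 0.116 and 0.0988 CPM in Ezh2 KO and 0.247, 0.319 and 0.177 CPM in Ctrl. Each Ezh2 KO library thus lay below each Ctrl library in CPM. At the nearest, 6 counts in Ezh2 KO replicate 1 gave 0.160 CPM and 5 counts in Ctrl replicate 3 gave 0.177 CPM. The order of these libraries therefore came from the scaling. Among single tested genes 4.03% lay wholly below Ctrl, which is not a like background for a sum of genes too scarce to test. The 13 counts over the Ezh2 KO libraries correspond to 0.125 CPM with an exact Poisson 95% interval of 0.0667 to 0.214 CPM, and the 26 counts over the Ctrl libraries to 0.248 CPM with an interval of 0.162 to 0.363 CPM. These intervals cover counting error only, and they overlap. The ratio of the group means was 0.504, and it was 0.409 without Pcdhb17.

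The alpha ID was near the floor in every library. It had 6, 1 and 4 counts in Ezh2 KO replicates 1 to 3 and 4, 4 and 5 counts in Ctrl replicates 1 to 3. The groups overlapped at 0.160, 0.0386 and 0.0988 CPM in Ezh2 KO and 0.0825, 0.142 and 0.177 CPM in Ctrl. Over the group, 11 counts in Ezh2 KO gave 0.106 CPM (exact Poisson 95% interval 0.0529 to 0.190) and 13 counts in Ctrl gave 0.124 CPM (0.0660 to 0.212). A difference was not detectable at this depth.

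Markers of cells that are known to express these genes, and of other cells an aggregate can hold, were read in the same libraries. The neural progenitor markers found, 9 of 10 listed, summed to 2.55 to 3.69 CPM in Ezh2 KO and to 4.56 to 6.60 CPM in Ctrl, with Olig2 at 0 in every library and 0 of 4 tested genes called by edgeR. Neurog1, a proneural transcription factor gene, was at 0.455, 0.0772 and 0.222 CPM in Ezh2 KO and 1.61, 1.56 and 0.884 CPM in Ctrl. Its log2 fold change was -2.37 ± 0.58 SE in edgeR (unadjusted p = 0.00334, adjusted p = 0.976) and -3.07 without Ezh2 KO replicate 1. It was called by DESeq2 with the replicate block, at -2.51 (adjusted p = 0.0463), and not by DESeq2 without it (adjusted p = 0.104). The DESeq2 fit with the block called 50 genes in all. On simulated counts, described below, the same fit also called 49 genes that had not been changed. Lhx2, a forebrain and eye transcription factor gene, had 2, 3 and 2 counts in Ezh2 KO and 15, 11 and 10 counts in Ctrl (edgeR, -2.28 ± 0.55 SE, unadjusted p = 0.00301, adjusted p = 0.976). Both genes lay wholly below Ctrl in Ezh2 KO, as did 4.03% of tested genes. The 10 neuron markers summed to 62.9 to 92.6 CPM in Ezh2 KO and to 54.4 to 112 CPM in Ctrl, most of it from Stmn2, which was at 53.4 ± 10.5 CPM in Ezh2 KO and 53.7 ± 23.0 CPM in Ctrl (SD, n = 3 each). Tubb3 followed at 14.6 CPM (mean over 6 libraries), and 6 of the 10 were tested. Those not tested were scarce. Dcx had 3 counts in all, and Rbfox3, Snap25 and Syt1 were at 0.221, 0.220 and 0.140 CPM (means over 6 libraries). Fibroblast markers, 10 of 10 found, summed to 3.94 to 7.996 CPM in Ezh2 KO and to 7.75 to 12.5 CPM in Ctrl, and 3 of the 7 tested were lower in Ezh2 KO at an unadjusted p under 0.05, where 1.25% of all tested genes were. The endoderm markers, 6 found with Cer1 at 0, summed to 0.849 to 1.51 CPM in Ezh2 KO and to 1.56 to 3.03 CPM in Ctrl. The mesoderm markers, 8 found with Foxf1 at 0, summed to 17.7 to 23.4 CPM in Ezh2 KO and to 15.9 to 20.4 CPM in Ctrl. The 7 trophoblast markers, with none at 0, summed to 199.8 to 351 CPM in Ezh2 KO and to 130.2 to 435 CPM in Ctrl. Krt8 and Krt18 carried most of that sum. Of these 7 genes, 1 was higher (Elf5) and 1 lower (Cdx2) in Ezh2 KO at an unadjusted edgeR p under 0.05. Over all tested genes 1.55% were higher and 1.25% lower at that threshold. Apart from Neurog1 under the replicate block in DESeq2, 0 genes of these lists were called by edgeR or DESeq2. The neural progenitor and endoderm sums split the groups as the beta sum did, with all Ezh2 KO libraries under all Ctrl libraries, and their part in it was not tested.

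The non-clustered protocadherins, which lie outside the clusters and have separate promoters, were also scarce. Of 12 genes 2 were tested and 0 were called, and Pcdh20 had no count. Pcdh1 was at 2.57, 0.425 and 1.85 CPM in Ezh2 KO and 1.67, 1.03 and 1.24 CPM in Ctrl (log2 fold change 0.31 ± 0.58 SE, adjusted p = 0.978), with -0.18 without Ezh2 KO replicate 1. Pcdh19, an X-linked gene known for its role in epilepsy in humans, was at 0.401, 1.31 and 1.06 CPM in Ezh2 KO and 1.59, 1.74 and 1.63 CPM in Ctrl. Each Ezh2 KO library lay below each Ctrl library for Pcdh19, as for 4.03% of tested genes, and the difference did not pass the edgeR test (-0.84 ± 0.45 SE, unadjusted p = 0.0974, adjusted p = 0.976).

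Among the larger relatives, the giant cadherin Fat1 was at 68.6 ± 11.7 CPM in Ezh2 KO and 61.4 ± 18.5 CPM in Ctrl (log2 fold change 0.16 ± 0.26 SE, and -0.06 without Ctrl replicate 1). Of 8 Fat, Dachsous and Celsr genes found, 5 were tested, 0 were called, and the median log2 fold change was -0.22, against 0.01 over all tested genes. Celsr2 and Celsr3, which set planar cell polarity and guide axons, had log2 fold changes of -0.54 ± 0.32 and -0.91 ± 0.64 SE, and that of Celsr3 was 0.01 without Ctrl replicate 1 and Ezh2 KO replicate 2, and -1.68 without Ezh2 KO replicate 1. Of 15 classical and related cadherins 9 were tested, 0 were called and the median was -0.07. The epithelial cadherin Cdh1, at 163 ± 75.8 CPM in Ezh2 KO and 178 ± 47.4 CPM in Ctrl, and the placental cadherin Cdh3, at 26.2 ± 10.6 and 28.1 ± 5.73 CPM in those groups (SD, n = 3 each), carried most of their reads. Cdh2, the neural cadherin, was at 0.776, 0.772 and 0.642 CPM in Ezh2 KO and 1.11, 3.83 and 1.73 CPM in Ctrl. The groups did not overlap for Cdh2, as was so for 8.09% of all tested genes, and it did not pass the edgeR test (-1.60 ± 0.50 SE, unadjusted p = 0.0124, adjusted p = 0.976). Without Ctrl replicate 2, its highest library, the value was -0.96 (edgeR, unadjusted p = 0.0569).

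**Figure D4:**
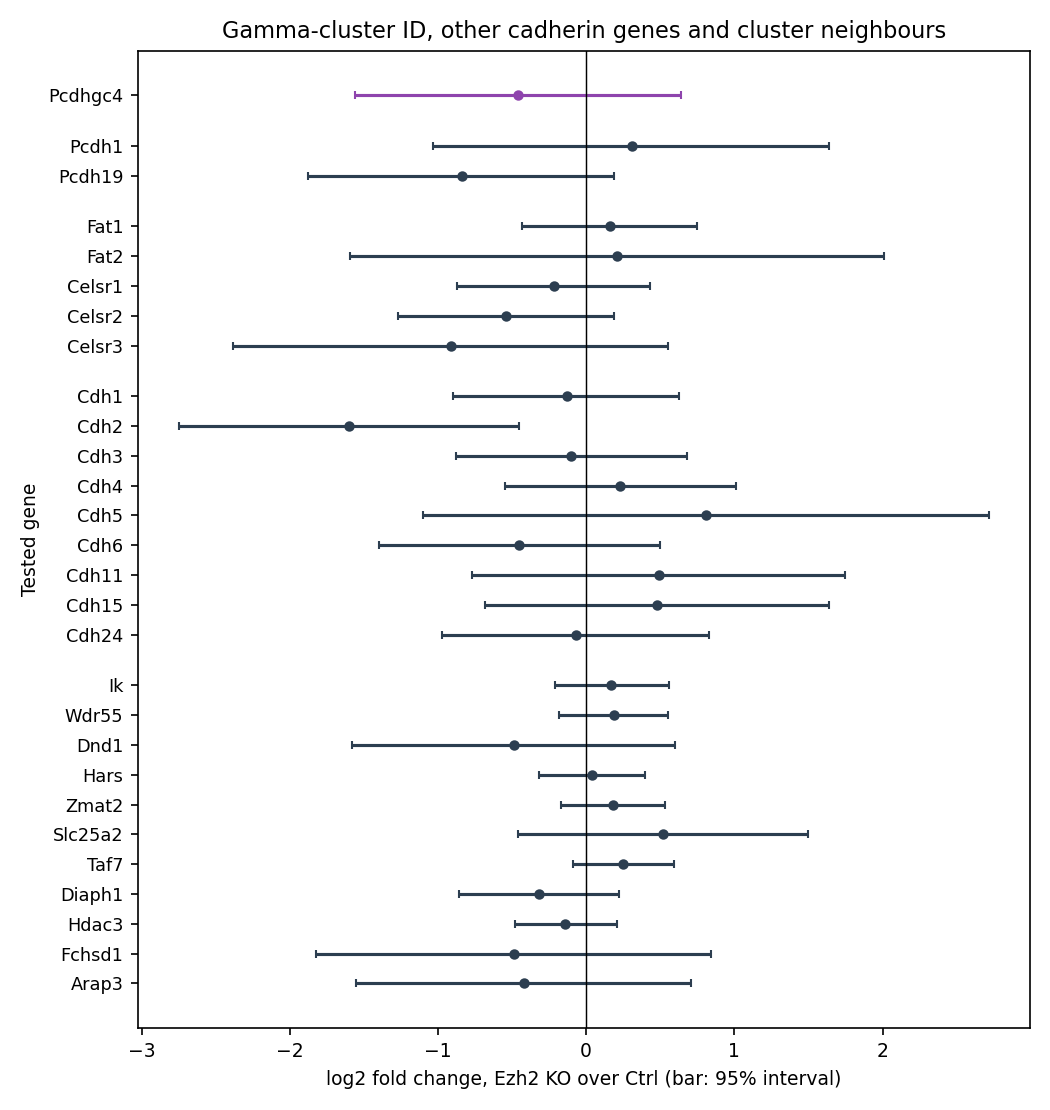
Log2 fold change, Ezh2 KO over Ctrl, with its 95% interval (horizontal axis) for the gamma ID (Pcdhgc4, purple) and the tested non-clustered protocadherins, Fat and Celsr genes, cadherins and neighbours of the clusters (vertical axis). The interval of the gamma ID runs from -1.56 to 0.64, and apart from Cdh2 every interval shown includes 0.

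Among genes next to the clusters on chromosome 18, SEs ran from below that of the gamma ID, as for Taf7, to above it, as for Fchsd1. Taf7, a general transcription factor gene that lies between the beta and gamma clusters, was at 236, 264 and 218 CPM in Ezh2 KO and 229, 183 and 193 CPM in Ctrl (log2 fold change 0.25 ± 0.15 SE). Its neighbour Slc25a2, a mitochondrial carrier gene, was at 0.577 ± 0.153 CPM in Ezh2 KO and 0.403 ± 0.0993 CPM in Ctrl (0.52 ± 0.43 SE). Downstream of the gamma cluster, the formin gene Diaph1 was at 42.3 ± 12.1 CPM in Ezh2 KO and 52.9 ± 5.20 CPM in Ctrl (-0.32 ± 0.24 SE), and the histone deacetylase gene Hdac3 at 98.5 ± 10.5 CPM in Ezh2 KO and 108 ± 6.47 CPM in Ctrl (-0.14 ± 0.15 SE). Dnd1, a germ cell gene upstream of the alpha cluster, was at 18.3, 19.9 and 8.30 CPM in Ezh2 KO and 28.7, 27.2 and 9.38 CPM in Ctrl (-0.49 ± 0.47 SE). In all, 11 of 12 neighbours were tested, 0 were called and the median was 0.04.

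Between libraries the neighbours differed in how far they ranged. The highest library exceeded the lowest by 1.45-fold for Taf7 and 1.30-fold for Hdac3, against 3.54-fold for the gamma ID and 5.43-fold for Fchsd1, which lies beyond Hdac3. Over the 3774 tested genes within 2-fold of the mean level of the gamma ID, the median range was 1.91-fold, and 13.8% ranged at least as far as the gamma ID. Fchsd1 was highest in Ctrl replicate 1, at 4.82 CPM, and lowest in Ezh2 KO replicate 2, at 0.888 CPM, as the gamma ID was, and 14.2% of all tested genes had these same libraries at their ends. Its log2 fold change was -0.49 ± 0.58 SE, and 0.37 without those libraries.

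The regulators of the clusters were all expressed, and 0 of 23 were called, with a median log2 fold change of -0.02. Ctcf, the insulator protein gene, was at 70.4 ± 23.4 CPM in Ezh2 KO and 67.2 ± 3.17 CPM in Ctrl, and the cohesin gene Smc3 at 542 ± 80.8 CPM in Ezh2 KO and 540.1 ± 30.0 CPM in Ctrl. The repressors Smchd1, at 82.4 ± 15.9 CPM in Ezh2 KO and 83.0 ± 15.8 CPM in Ctrl, and Setdb1, at 58.8 ± 10.6 CPM in Ezh2 KO and 60.3 ± 7.67 CPM in Ctrl, likewise differed by less than their spread. Trim28, which recruits Setdb1, was at 403 ± 93.6 CPM in Ezh2 KO and 433 ± 34.1 CPM in Ctrl (SD, n = 3 each throughout).

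The DNA methyltransferase gene Dnmt3b had the smallest p among the regulators. It was at 55.0, 75.8 and 91.3 CPM in Ezh2 KO and 47.6, 44.4 and 51.9 CPM in Ctrl, with each Ezh2 KO library above each Ctrl library, as for 4.07% of tested genes. The log2 fold change was 0.63 ± 0.21 SE, which did not pass the edgeR test (unadjusted p = 0.0184, adjusted p = 0.976). Tet1, which oxidises methylated cytosine, was at 263, 332 and 411 CPM in Ezh2 KO and 193, 219 and 321 CPM in Ctrl (0.46 ± 0.24 SE, adjusted p = 0.976), and its groups overlapped.

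The list of genes that process protocadherins or pass on their signal had 18 members, all tested, with 0 called and a median of 0.00. Ret, a receptor kinase that can associate with protocadherins, was scarce, at 0.160, 0.232 and 0.346 CPM in Ezh2 KO and 0.577, 0.745 and 1.03 CPM in Ctrl. Ret lay wholly below Ctrl in Ezh2 KO, as did 4.03% of tested genes, and did not pass the edgeR test (-1.63 ± 0.47 SE, unadjusted p = 0.00777, adjusted p = 0.976). Cyfip1, a subunit of the WAVE complex that binds the cytoplasmic part of several protocadherins, was at 244 ± 18.7 CPM in Ezh2 KO and 228 ± 36.0 CPM in Ctrl, and Pdcd10, which binds their shared cytoplasmic part, at 203 ± 26.8 CPM in Ezh2 KO and 204 ± 24.2 CPM in Ctrl (SD, n = 3 each).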

How the data were processed

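The authors deposited whole-number read counts per Ensembl gene ID, not normalized, for 6 libraries. Per the submitters' processing notes, the tools were TopHat2 2.0.11, Trimmomatic 0.33, featureCounts and CASAVA 1.8.4, and the builds NCBIM37 and mm9. No source used here gives their settings or the use of strand. Symbols, biotypes and GC content came from GENCODE M21 by gene ID (32919 of 37991 matched). It belongs to another build, so no coordinates are printed. Between 1.80% and 2.73% of each library fell on IDs with no symbol.

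Genes kept by filterByExpr (minimum count 10) were scaled by TMM and tested with the robust quasi-likelihood test of edgeR 4.0.16 (R 4.3.3), without further terms and 2-sided, adjusted after Benjamini and Hochberg over all 16420 tested genes, with a threshold of 0.05. CPM are TMM-scaled, and principal components used log2 CPM with a prior count of 2. Alternatives used DESeq2 1.42.0, limma-voom (limma 3.58.1), other scalings and filters, the replicate block, each library left out, and, chosen after seeing the data, a GC offset (loess, span 0.5) and removal of both libraries at the ends of the first component.

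Deviations from group means correlated by 0.583, 0.368 and 0.192 between same-numbered libraries over all tested genes, while libraries of different number reached 0.297. The main test does not pair the samples, and the replicate block was run only as an alternative. With the block in edgeR, 1495 of 16420 tested genes had an unadjusted p under 0.05, against 459 in the main test. For genes of mean log2 CPM over 2 the values were 0.623, 0.299 and 0.037, and different numbers reached 0.531, so the pairing is uncertain.

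The members and the 14 gene lists were chosen with earlier results of these data known. Named by rule were the most abundant 4 members per cluster, the C-type members, members with the smallest p, Ezh2, all cluster neighbours and, per list, the most abundant 2 and the 2 of smallest p. Only some of these non-members are printed. Pcdhb2, Pcdhb14, Pcdhb20, Ctcf, Smchd1, Setdb1, Dcx, Rbfox3, Snap25 and Syt1 fall outside the rule and were chosen after their values were seen. On simulated counts for Ezh2 KO over Ctrl, run on 16134 genes, edgeR recovered 15.0% of 2-fold and 86.0% of 4-fold changes. Genes left unchanged were called as well, 8 by edgeR, 46 by DESeq2 and 49 by DESeq2 with the replicate block (DESeq2 on 16420 genes). The changes were placed only in genes of high mean count, and counts were drawn independently for each library. The simulation thus held neither the main axis of variation nor a link between same-numbered libraries. Its shares do not apply to genes of few reads, such as Lhx2 and Neurog1.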

Additional observations from a re-analysis of the deposited data

How the results depend on the processing

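No member passed under any of the 17 alternatives, and edgeR and limma-voom called 0 genes in all of theirs; DESeq2 called 5 genes, or 50 with the replicate block, with 0 members. Without each library in turn edgeR again called 0 genes. The sign changes were for Fat1 (-0.06) and Fchsd1 (0.01) without Ctrl replicate 1, Pcdh1 (-0.18) without Ezh2 KO replicate 1, and, without both libraries at the ends of the first component, Pcdhgc4 (0.15), Celsr3 (0.01) and Fchsd1 (0.37). The cause was not tested. Over single libraries left out, the log2 fold change ranged between -0.06 and 0.36 for Fat1, -1.23 and 0.01 for Fchsd1, and -0.18 and 0.75 for Pcdh1. The other 14 of 19 genes whose fold change is printed kept their sign. With the replicate block, taken as the mean log2 ratio of same-numbered libraries, the summed levels gave -0.59 for alpha, -0.98 for beta and -0.56 for gamma, against -0.43, -0.99 and -0.46 without it, and in DESeq2 it brought Neurog1 past the threshold (-2.51, adjusted p = 0.0463) and changed no other call among the members and listed genes. Leaving out each library in turn moved the ratio of group means between 0.514 and 0.969 for alpha, 0.433 and 0.589 for beta, and 0.461 and 0.909 for gamma. No sum over members that pass the filter exists for the alpha and beta clusters, since none passes, and the alpha and gamma clusters have no second member to leave. Depth limits the alpha and beta genes, where a library allows 0.0618 to 0.116 CPM at a count of 0, with 3 counts taken as the floor.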
